A study of Mus musculus with 8 samples.

Results

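The genes of the circadian clock were followed in peritoneal macrophages from mice that lack the proprotein convertase FURIN in myeloid cells: Clock, Nr1d1, Nr1d2, Per1, Per2, Cry1, Cry2, Dbp, Tef and Bhlhe40, 10 in all. They were chosen by name, each through the array probe whose transcript accession belongs to the gene, and the brightest probe stood for a gene with several. All 10 genes were measured, among 37018 genes and transcripts on the arrays, and all 10 passed the filter on dim genes, a mean log2 intensity of at least 6. RNA of FURIN KO cells (LysMCre-fur(fl/fl), in which Cre is driven by the lysozyme M gene and acts in myeloid cells) and of WT littermate cells, both on the C57BL/6 background, was hybridised together on 8 Agilent 2-colour arrays. For each genotype the groups were untreated cells (0 h) and cells stimulated with LPS, bacterial lipopolysaccharide, at 1 μg/ml for 1, 4 or 24 h, with 2 arrays per time labelled as biological replicates and the dyes exchanged between them. All cells had been plated and given fresh medium before stimulation. The sources used here give neither the age of these mice, nor the hour at which the untreated cells were collected, nor cells kept without LPS for 24 h, so that LPS and time in culture cannot be told apart. No source used here says that replicates came from separate animals, so p-values measure only the spread between these samples.

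The clock is a loop of transcription factors. CLOCK and its partner BMAL1 bind E-boxes and switch on Per, Cry, Nr1d and Dbp genes. PER and CRY proteins repress CLOCK and BMAL1, the nuclear receptors REV-ERBα (Nr1d1) and REV-ERBβ (Nr1d2) repress the gene for BMAL1, Bhlhe40 (DEC1) represses through E-boxes, and DBP and TEF, proline- and acid-rich bZIP factors, activate genes through D-boxes. In macrophages the clock is known for timing cytokine responses to bacterial products.

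The promoters of the clock genes were searched for these elements in the 250 bases before each start site, on both strands, using RefSeq sequence of build GRCm38.p6, which held entries for 8 of the 10 genes in 12 windows. Per2 and Bhlhe40 had no entry. An E-box, CACGTG, was found in 4 of the 12 windows, from Tef, Cry1 and Per1, and in 6.02% of all 32851 promoter windows. A D-box, TTATGNAA, was found in 1 of the 12 windows, from Per1, and in 3.07% of all windows. None of the 12 windows held the cAMP response element TGACGTCA, present in 1.55% of all windows. The ROR and REV-ERB element TAGGTCA, present in 2.23%, was also absent from them. The Per1 matches lie before an internal start, 3841 bases after the first start of the gene. For Per1 and Clock no sequence before the first start was at hand, so motifs there are not excluded. No 2 of these motifs overlapped. The sequences below are shown because Tef and Dbp fell together while Cry1 rose. Capitals mark the motif, and each sequence reads 5′ to 3′ on the strand of its gene.
Tef, chr15:81802423-81802672, plus strand, E-box 127 bases before the start: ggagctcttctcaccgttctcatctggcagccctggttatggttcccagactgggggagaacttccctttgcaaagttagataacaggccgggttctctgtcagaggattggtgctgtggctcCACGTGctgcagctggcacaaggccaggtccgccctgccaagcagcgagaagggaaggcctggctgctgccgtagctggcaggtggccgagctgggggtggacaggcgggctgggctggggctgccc
Tef, second start, chr15:81811264-81811293, plus strand, E-box 138 bases before the start: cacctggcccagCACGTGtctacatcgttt
Dbp, chr7:45704997-45705099, plus strand, bases preceding the first start of the gene, no match: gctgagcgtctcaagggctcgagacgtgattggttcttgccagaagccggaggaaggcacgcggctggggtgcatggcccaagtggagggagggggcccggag
Cry1, chr10:85185055-85185304, minus strand, E-box 60 bases before the start: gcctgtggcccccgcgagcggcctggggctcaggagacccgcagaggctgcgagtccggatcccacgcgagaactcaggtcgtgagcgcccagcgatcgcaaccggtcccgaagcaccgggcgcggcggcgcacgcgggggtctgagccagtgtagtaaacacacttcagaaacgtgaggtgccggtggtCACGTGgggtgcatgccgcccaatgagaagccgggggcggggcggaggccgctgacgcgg
Per1, internal start, chr11:69098771-69098800, plus strand, E-box 166 bases before the start: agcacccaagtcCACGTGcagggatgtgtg
Per1, the same start, chr11:69098913-69098942, plus strand, D-box 24 bases before the start: cagggcctggcaTTATGCAAcccgcctccc
A match is a description of the sequence only.

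The labels were checked before the clock genes were read. Furin had log2 ratios of KO to WT of -0.72, -0.55 and -0.63 at 0, 1 and 24 h, but at 4 h the arrays gave 0.00 and 0.33. Its mean ratio over the times was -0.43 (adjusted p = 0.0211, limma). The 4 h samples are therefore called RNA labelled KO below, also where a list of values of KO cells includes 4 h. Whether the Furin probe lies in the deleted exon is not given in the sources used here. Lyz2, the lysozyme M gene at whose locus this Cre is inserted, had a mean log2 ratio over the times of -1.18 (adjusted p = 0.000508) and was below 0 at all 4 times. Tnf, Il1b, Il6, Nfkbia, Ccl5 and Nos2, classical targets of LPS, had a median change of 6.27 at 4 h in WT cells on the log2 scale. Of the markers of cell types, 8 of 8 measured macrophage markers were well above background in all 16 channels, and 7 of 7 B-cell markers and 5 of 7 T and NK cell markers were as well. All arrays lay on 1 slide and were scanned once, and 43.8% to 51.3% of probes were well above background in a channel.

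LPS was followed by a fall of the D-box activators within 1 h and of the REV-ERB genes, Bhlhe40 and Clock by 24 h. The cryptochromes and Per2 rose by less than 2-fold at 4 h. With the processed signals of the scanner software the rise of Per2 in RNA labelled KO was larger, a log2 change of 1.09. In WT cells at 1 h, 2 of the 10 genes were lower and 0 higher (limma separate-channel fit, Benjamini-Hochberg adjusted p below 0.05 over all 36927 genes and transcripts tested), where 5.19% of all tested were lower and 3.36% higher. At 4 h, 4 were lower and 3 higher, against 19.3% and 15.4% of all tested. At 24 h, 7 were lower and 1 higher, against 16.8% and 13.5%. In KO cells the counts were 2 lower and 0 higher at 1 h, against 4.41% and 3.11% of all tested, 3 lower and 3 higher in RNA labelled KO at 4 h, against 19.8% and 16.2%, and 7 lower and 0 higher at 24 h, against 15.7% and 13.0%. The median of the 10 changes at 24 h was -1.15 in WT and -1.17 in KO cells on the log2 scale, while the median over all tested was -0.01 in both. At 4 h the rises and falls offset each other, and the median size of change without its sign was 0.64 in WT and 0.54 in RNA labelled KO, against 0.20 and 0.21 over all tested and 0.53 and 0.55 over the 16424 genes and transcripts well above background in all 16 channels, so that the size at 4 h was near that of detected genes. Among those 16424, in a fit of their own, 11.4% were lower and 7.37% higher at 1 h in WT cells, 35.9% and 30.6% at 4 h, and 33.0% and 25.8% at 24 h, and in KO cells 10.4% and 7.29%, 36.4% and 31.6%, and 31.2% and 24.6%. Of the 8 clock genes in that fit, 2 were lower and 0 higher at 1 h in WT cells, 5 and 2 at 4 h, and 6 and 1 at 24 h, and in KO cells 2 and 0, 3 and 2, and 6 and 0. The 4 h counts were thus near the share of detected genes in RNA labelled KO and for the genes that rose in WT cells. The 3 LPS times share the untreated arrays of their genotype.

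**Figure D1:**
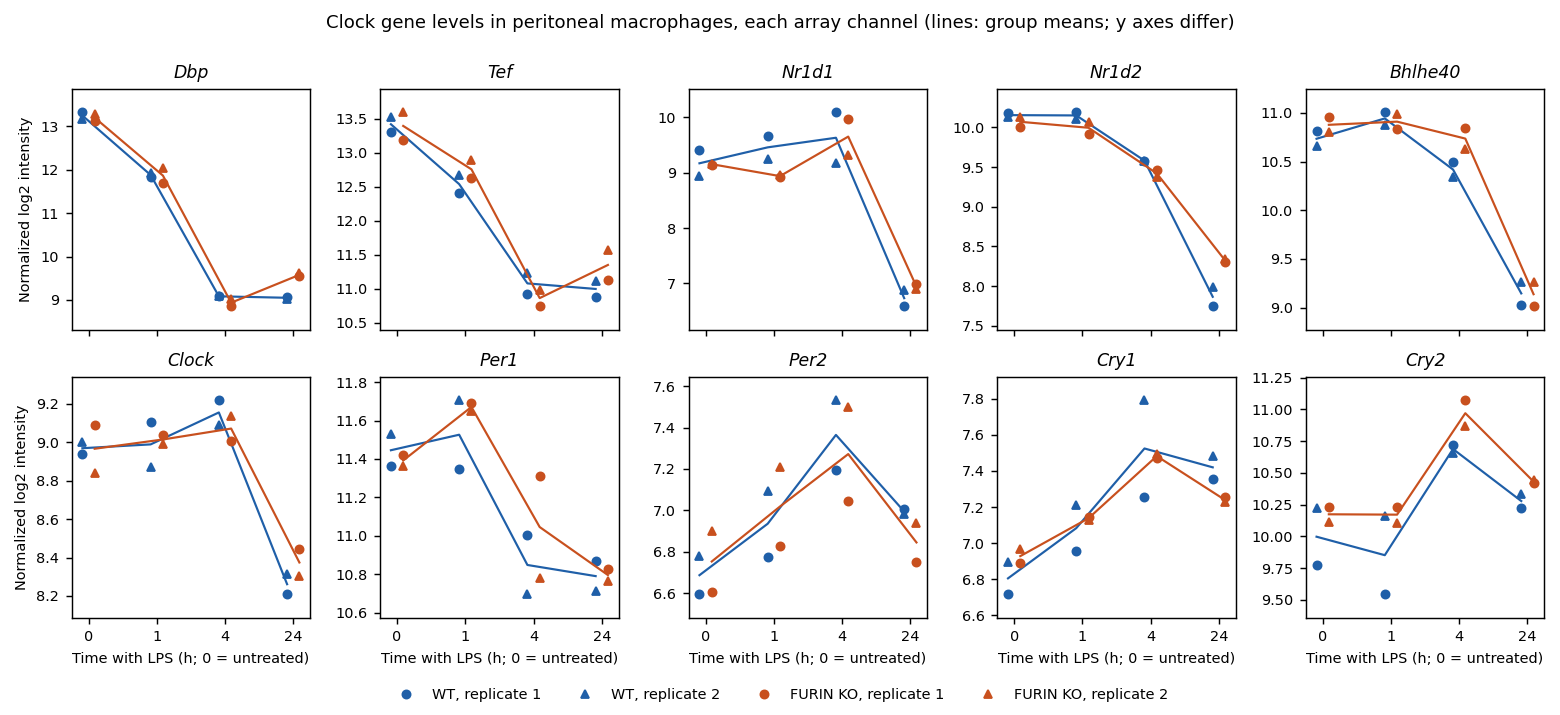
Normalized log2 intensity (y axes, which differ between panels) of each clock gene at 0, 1, 4 and 24 h of LPS (x axis, evenly spaced times) in WT (blue) and FURIN KO (orange) macrophages. Circles are replicate 1, triangles replicate 2 and lines join group means (n = 2). Dbp drops from between 13.12 and 13.33 in untreated cells to between 8.85 and 9.61 at 4 and 24 h, whereas Nr1d1 holds at 4 h and lies between 6.58 and 6.98 after 24 h.

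Dbp, the output activator of the loop that follows E-box activity most directly, made the largest move of the 10 genes. Its log2 intensity in WT cells was 13.33 and 13.17 untreated, 11.83 and 11.93 after 1 h, 9.08 and 9.09 after 4 h, and 9.07 and 9.03 after 24 h. In KO cells it was 13.12 and 13.28 untreated, 11.69 and 12.04 after 1 h, 8.85 and 9.02 after 4 h, and 9.54 and 9.61 after 24 h. In each genotype the untreated values lay above all LPS values and the 1 h values above those of 4 and 24 h. In WT cells Dbp was 2.58-fold lower at 1 h (log2 change -1.37, SE 0.12, adjusted p = 4.68e-06, limma), 17.9-fold lower at 4 h (adjusted p = 1.96e-11) and 18.4-fold lower at 24 h (adjusted p = 3.18e-11). The falls were 2.52-fold in KO cells at 1 h, 19.2-fold in RNA labelled KO at 4 h and 12.3-fold in KO cells at 24 h (adjusted p = 7.57e-06, 2.08e-11 and 1.18e-10). Ordered from the largest fall, Dbp stood at place 30 of 36927 in WT cells at 4 h and at place 24 in RNA labelled KO. From 4 to 24 h the WT level changed by -0.03 (adjusted p = 0.895), while from RNA labelled KO at 4 h to KO at 24 h Dbp rose by 0.64 (SE 0.12, adjusted p = 0.00077). Among probes named through their transcript accession, Dbp was the only one of the 10 genes with a second probe. This dimmer probe gave changes of -1.53, -4.42 and -4.21 in WT and -1.50, -4.30 and -3.75 in KO cells at 1, 4 and 24 h.

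Tef, which acts on the same D-box as DBP, followed the same course at a smaller scale. Its log2 intensity in WT cells was 13.31 and 13.53 untreated, 12.40 and 12.67 after 1 h, 10.92 and 11.24 after 4 h, and 10.88 and 11.11 after 24 h. In KO cells it was 13.19 and 13.60 untreated, 12.63 and 12.89 after 1 h, 10.74 and 10.99 after 4 h, and 11.14 and 11.57 after 24 h. Untreated values lay above all LPS values in each genotype. The falls were 1.84-fold, 5.05-fold and 5.35-fold in WT cells at 1, 4 and 24 h (adjusted p = 0.0061, 1.47e-07 and 1.77e-07, limma) and 1.56-fold in KO cells, 5.77-fold in RNA labelled KO and 4.12-fold in KO cells (adjusted p = 0.0467, 7.13e-08 and 9.83e-07). The 1 h call depended on single arrays. Without untreated replicate 2 the 1 h change was -0.77 in WT and -0.44 in KO cells (adjusted p = 0.0588 and 0.33), and without 1 h replicate 1 it was -0.74 and -0.51 (adjusted p = 0.0796 and 0.31). Without 1 h replicate 2 it was -0.77 in KO cells (adjusted p = 0.0894), and without either 4 h array the KO call was lost at an adjusted p of 0.0511. From 4 to 24 h Tef changed by 0.49 in KO cells with an adjusted p of 0.0556 (limma), which was 0.000552 with the replicate number as a block. The change was 0.70 without 24 h replicate 1 and 0.27 without 24 h replicate 2.

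The REV-ERB genes were lowest at 24 h. Nr1d1, the haem-binding repressor of the BMAL1 gene, had log2 intensities in WT cells of 9.41 and 8.93 untreated, 9.66 and 9.25 after 1 h, 10.09 and 9.17 after 4 h, and 6.58 and 6.88 after 24 h. In KO cells they were 9.14 and 9.16, 8.91 and 8.96, 9.98 and 9.33, and 6.98 and 6.90. The 24 h values lay below all others, while in WT cells those at 1 and 4 h overlapped the untreated ones. In KO cells those at 1 h lay below the untreated values and those at 4 h above them, without passing the test. Nr1d1 was 5.41-fold lower in WT and 4.63-fold lower in KO cells at 24 h than untreated (adjusted p = 6.57e-06 and 1.75e-05, limma), and 7.45-fold and 6.53-fold lower than at 4 h (adjusted p = 1.48e-06 and 2.66e-06). WT at 24 h was well above background on 1 of 2 arrays, so that its level there is near the limit of the probe. At 4 h the changes were 0.46 in WT and 0.50 in RNA labelled KO (adjusted p = 0.222 and 0.179, limma). They were 0.92 and 0.82 without 4 h replicate 2, and -0.001 and 0.17 without 4 h replicate 1.

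Nr1d2, its paralogue, fell in both steps. In WT cells its log2 intensity was 10.18 and 10.13 untreated, 10.19 and 10.11 after 1 h, 9.58 and 9.58 after 4 h, and 7.74 and 7.99 after 24 h. In KO cells it was 10.01 and 10.14, 9.92 and 10.07, 9.46 and 9.38, and 8.30 and 8.35. Within each genotype the 4 h values lay below those of 0 and 1 h and the 24 h values below those of 4 h. At 4 h the falls were 1.49-fold in WT and 1.57-fold in RNA labelled KO (adjusted p = 0.000472 and 0.000159, limma), and at 24 h 4.89-fold and 3.35-fold (adjusted p = 1.72e-09 and 2.3e-08). From 4 to 24 h Nr1d2 fell a further 3.29-fold in WT and 2.14-fold in KO cells (adjusted p = 4.2e-08 and 2.03e-06).

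Bhlhe40 encodes an E-box repressor that also tunes cytokine genes in macrophages. Its log2 intensity was 10.81 and 10.66 in untreated WT cells, 11.01 and 10.88 after 1 h, 10.49 and 10.34 after 4 h, and 9.03 and 9.26 after 24 h. In KO cells it was 10.95 and 10.80, 10.83 and 10.99, 10.84 and 10.63, and 9.01 and 9.26. Only the 24 h values stood clear of the untreated ones in both genotypes. The falls at 24 h were 3.01-fold in WT and 3.34-fold in KO cells (adjusted p = 3.33e-07 and 1.49e-07, limma), and from 4 to 24 h 2.41-fold and 3.03-fold (adjusted p = 3.14e-06 and 3.96e-07). Clock, the E-box activator itself, had untreated values of 8.94 and 9.0 in WT and 9.09 and 8.84 in KO cells, and 24 h values of 8.21 and 8.31 in WT and 8.45 and 8.30 in KO cells. Its 24 h values did not overlap the untreated ones. The falls were 1.63-fold and 1.51-fold against untreated cells (adjusted p = 0.000299 and 0.00134) and 1.86-fold and 1.62-fold against 4 h (adjusted p = 4.14e-05 and 0.000339).

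Of the 10 genes, 4 were lower and 0 higher at 24 than at 4 h in WT cells (Nr1d1, Nr1d2, Bhlhe40 and Clock), against 14.5% and 15.3% of all tested. From RNA labelled KO at 4 h to KO at 24 h, 5 were lower and 1 higher (the same genes with Cry2 lower, and Dbp higher), against 14.9% and 15.8%.

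**Figure D2:**
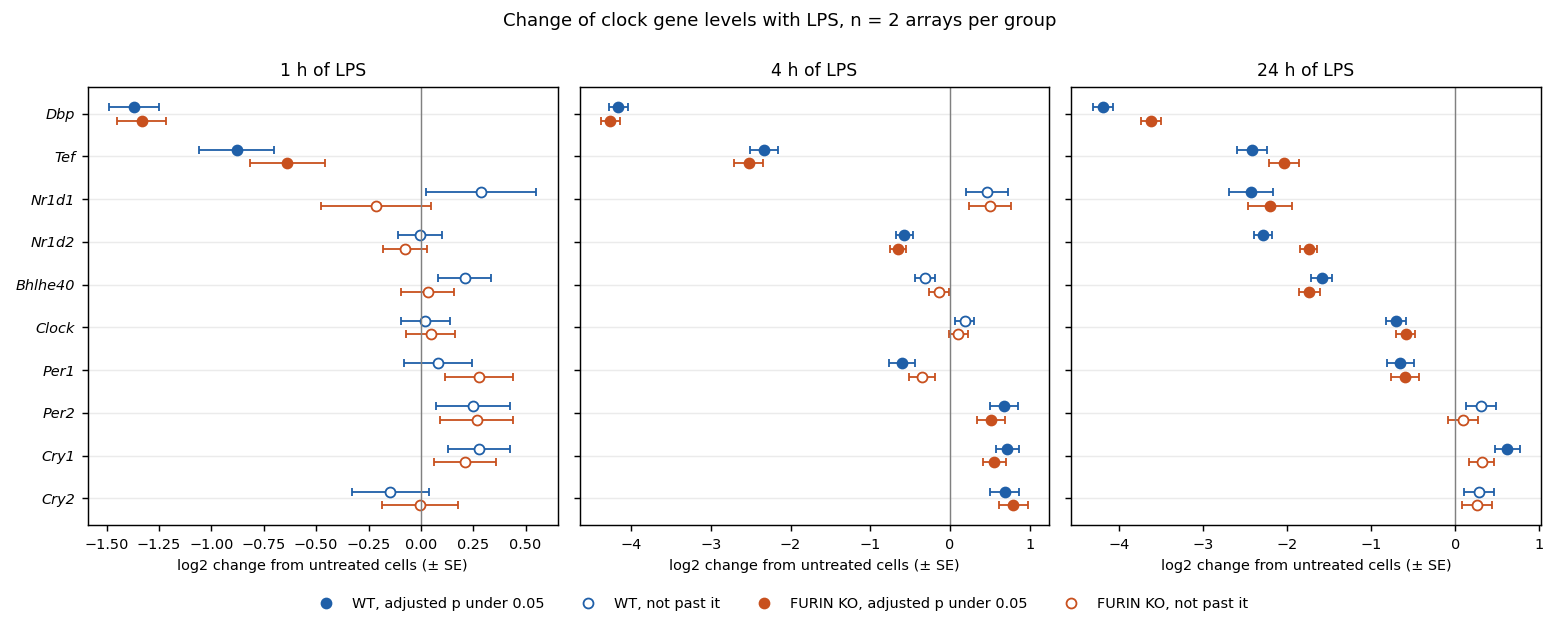
Log2 change from untreated cells (x axes, which differ between panels; points with SE bars from the limma fit, n = 2 arrays per group) of the 10 clock genes at 1, 4 and 24 h of LPS. Blue is WT, orange FURIN KO; filled points passed an adjusted p of 0.05 and open points did not. Dbp and Tef lie left of 0 in every panel, Nr1d1, Nr1d2, Bhlhe40 and Clock pass the threshold at 24 h, and Cry1, Cry2 and Per2 lie right of 0 at 4 h.

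The cryptochromes rose at 4 h. Cry1, which encodes a strong repressor of CLOCK and BMAL1, had log2 intensities in WT cells of 6.71 and 6.89 untreated, 6.96 and 7.21 after 1 h, 7.26 and 7.79 after 4 h, and 7.36 and 7.48 after 24 h. In KO cells they were 6.89 and 6.96, 7.15 and 7.13, 7.47 and 7.50, and 7.25 and 7.23. All LPS values lay above the untreated ones of their genotype. Cry1 rose 1.65-fold in WT and 1.47-fold in RNA labelled KO at 4 h (adjusted p = 0.00128 and 0.00808, limma) and 1.53-fold in WT cells at 24 h (adjusted p = 0.00494). The log2 change in WT cells at 4 h, 0.72 with all arrays, was 0.45 without 4 h replicate 2 and 0.99 without 4 h replicate 1. In KO cells at 24 h the change was 0.31 with an adjusted p of 0.148, and 0.0315 with the replicate number as a block. Without untreated replicate 1 the 4 h change in RNA labelled KO was 0.52 and the 24 h change in WT cells 0.53 (adjusted p = 0.0603 and 0.0675), and without 24 h replicate 2 the latter was 0.55 (adjusted p = 0.0597).

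Cry2 peaked at 4 h. Its log2 intensity in WT cells was 9.77 and 10.22 untreated, 9.54 and 10.16 after 1 h, 10.72 and 10.66 after 4 h, and 10.22 and 10.33 after 24 h. In KO cells it was 10.23 and 10.11, 10.23 and 10.11, 11.07 and 10.87, and 10.42 and 10.44. The 4 h values lay above all others of their genotype. Cry2 rose 1.61-fold in WT and 1.74-fold in RNA labelled KO at 4 h (adjusted p = 0.00818 and 0.00301, limma), although without untreated replicate 1 the WT change was 0.46 (adjusted p = 0.129) and without 4 h replicate 1 it was 0.66 (adjusted p = 0.0539). From 4 to 24 h the change was -0.54 in KO cells (adjusted p = 0.0381), which passed in none of the fits without a 4 h or 24 h array, at changes from -0.44 to -0.64 and adjusted p from 0.066 to 0.234, nor with the processed signals of the scanner software (-0.52, adjusted p = 0.0851). In WT cells it was -0.41 (adjusted p = 0.119, and 0.0343 with the replicate number as a block).

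Per1 fell and Per2 rose, and both encode partners of the cryptochromes in repression. Per1, an immediate target of many stimuli, had log2 intensities in WT cells of 11.36 and 11.53 untreated, 11.35 and 11.71 after 1 h, 11.00 and 10.69 after 4 h, and 10.87 and 10.71 after 24 h. In KO cells they were 11.42 and 11.37, 11.69 and 11.65, 11.31 and 10.78, and 10.83 and 10.76. Values at 4 and 24 h lay below the untreated ones in both genotypes. Per1 was 1.51-fold lower at 4 h and 1.58-fold lower at 24 h in WT cells (adjusted p = 0.0102 and 0.00664, limma) and 1.51-fold lower at 24 h in KO cells (adjusted p = 0.0125). At 4 h the change was -0.35 in RNA labelled KO (adjusted p = 0.127, limma). It was -0.61 without 4 h replicate 1 and -0.08 without 4 h replicate 2. Without untreated replicate 2 the WT changes at 4 and 24 h were -0.51 and -0.57 (adjusted p = 0.101 and 0.076), and without 24 h replicate 2 the latter was -0.58 (adjusted p = 0.0759). In KO cells at 24 h the fall passed in none of the fits without an untreated or 24 h array, at changes from -0.56 to -0.63 and adjusted p from 0.0542 to 0.0859. From 4 to 24 h the change in KO cells was -0.25 with all arrays (adjusted p = 0.312, limma). It was -0.52 without 4 h replicate 2 and 0.02 without 4 h replicate 1.

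Per2 lay close to background and rose at 4 h. Its log2 intensity in WT cells was 6.59 and 6.78 untreated, 6.78 and 7.09 after 1 h, 7.20 and 7.53 after 4 h, and 7.01 and 6.98 after 24 h. In KO cells it was 6.60 and 6.90, 6.83 and 7.21, 7.05 and 7.50, and 6.75 and 6.94, with 1 of 2 untreated arrays well above background. The 4 h values lay above the untreated ones in both genotypes. The rise at 4 h was 1.60-fold in WT and 1.43-fold in RNA labelled KO (adjusted p = 0.00738 and 0.0332, limma), and it was lost in WT cells without untreated replicate 1 (change 0.59, adjusted p = 0.0673) or 4 h replicate 2 (0.51, adjusted p = 0.0601). In RNA labelled KO it was lost without untreated replicate 1 (0.37, adjusted p = 0.261), 4 h replicate 2 (0.29, adjusted p = 0.288) or either 24 h array (adjusted p = 0.052), and with the processed signals of the scanner software, where the change was 1.09 (adjusted p = 0.10). At 24 h the change was 0.31 in WT (adjusted p = 0.242) and 0.09 in KO cells (adjusted p = 0.795), the former with an adjusted p of 0.0333 with the replicate number as a block. From 4 to 24 h it was -0.37 in WT and -0.43 in KO cells (limma, adjusted p = 0.149 and 0.0892, and 0.0124 and 0.00483 with the block). The change in KO cells was -0.65 without 4 h replicate 1 and -0.20 without 4 h replicate 2.

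Markers of several cell types moved with these courses, and their part in them was not tested. In bulk RNA, fewer cells of a type and less RNA per cell cannot be told apart. The summed intensity of the 8 measured macrophage markers, all well above background throughout, went from between 405283 and 607046 in untreated cells to between 329453 and 579452 after 1 h, between 152804 and 301677 after 4 h, and between 132357 and 188123 after 24 h. Of these 8, 5 were lower and 0 higher at 4 h in each genotype, and 6 lower and 1 higher at 24 h. From 4 to 24 h 4 were lower and 2 higher in each. At each time the sum was lower in both KO channels than in both WT channels, and it holds Lyz2. Without Lyz2 the sum of the other 7 was between 277477 and 313065 untreated, between 215297 and 285472 after 1 h, between 97297 and 143444 after 4 h, and between 115671 and 137853 after 24 h, still lower in both KO channels than in both WT channels at 0, 1 and 24 h, while at 4 h the channels overlapped. That of the 7 measured B-cell markers went from between 78815 and 129538 untreated to between 32140 and 49382 at 4 h and 41868 and 51258 at 24 h. Of these 7, 2 were higher and 3 lower at 4 h in WT cells and 2 higher and 5 lower in RNA labelled KO, and at 24 h 2 were lower and 0 higher in each genotype, with median log2 changes of -0.19 and -0.27. That of the 7 measured T and NK cell markers was between 11105 and 19639 untreated, between 13575 and 26090 after 1 h, between 6071 and 9592 after 4 h and between 9040 and 10940 after 24 h, with Ncr1 and Klrb1c not well above background in any channel. Of these 7, 1 was lower at 4 h in WT cells and 2 in RNA labelled KO. At 24 h 2 were lower in WT and 3 in KO cells, and 0 were higher at either time. That of the 8 mast cell markers went from between 8934 and 16422 to between 33876 and 58895 at 4 h, and was between 12910 and 18131 at 24 h, with the log2 intensity of Hdc between 9.46 and 10.38 untreated and between 14.50 and 15.49 at 4 h. Hdc was the only one of the 8 called higher at 4 h, and at 24 h 5 of the 8 were lower in WT and 6 in KO cells, with median log2 changes of -1.59 and -1.36 over the 8. That of the 7 measured neutrophil markers was between 3570 and 5074 up to 4 h and between 23727 and 65832 at 24 h, while S100a9, Mpo, Ngp and Cxcr2 were not well above background in any channel. S100a8 had log2 intensities between 10.62 and 11.47 up to 4 h and between 14.40 and 15.97 at 24 h, while of the 7 markers 2 were higher and 1 lower at 24 h in each genotype, with median log2 changes of 0.12 in WT and 0.02 in KO cells. That of the 9 mesothelial and fibroblast markers was between 1005 and 1533 up to 4 h and between 2357 and 3009 at 24 h, where 1 of the 9 was higher in WT and 2 in KO cells, with median log2 changes of 0.15 and -0.02.

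No difference between FURIN KO and WT cells in the 10 clock genes passed the test at any time, although with the replicate number as a block Dbp passed at 24 h and Cry2 over all times. Under that block 0.585% and 6.06% of all tested passed at 24 h and over all times. Before LPS the mean log2 ratios of KO to WT ran from -0.08 for Nr1d2 to 0.18 for Cry2. On the same array, where both RNAs meet the same spot, 0 of the 10 genes differed at 0, 1, 4 or 24 h (limma on log2 ratios of KO to WT, adjusted over 36947 genes and transcripts), when 0%, 0%, 0.0108% and 0.0217% of all tested did (2137, 2054, 1590 and 1251 at an unadjusted p below 0.05). The ratio averaged over the times was called for 0 of the 10 genes and for 0.595% of all tested. At an unadjusted p below 0.05 the counts among the 10 genes were 0, 2, 1 and 3 at the 4 times and 1 over all times, where 3942 of all tested had one. The test of the difference in LPS response itself, the ratio at a time minus the ratio of untreated cells, called 0 of the 10 genes at 1, 4 and 24 h and 0% of all tested at each time. At an unadjusted p below 0.05 it picked 0, 0 and 3 of the 10, and 527, 1079 and 1228 of all tested. A p that misses the threshold does not show that the genotypes were alike.

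At 24 h the ratios of Dbp, Nr1d2, Tef, Nr1d1 and Cry2 lay above 0 on both arrays. Those of Per2 (-0.26 and -0.04) and Cry1 (-0.10 and -0.26) lay below 0 on both. The share of all genes with the same sign on both arrays was not counted. Dbp had log2 ratios of KO to WT of -0.20 and 0.11 untreated, -0.14 and 0.11 after 1 h, -0.23 and -0.06 at 4 h, and 0.47 and 0.59 after 24 h. Both 24 h arrays stood above all earlier ones. The 24 h ratio was 0.53 (SE 0.11, adjusted p = 0.372, limma), and with the replicate number as a block it passed the test (adjusted p = 0.0199). The response at 24 h differed between the genotypes by 0.58 with an adjusted p of 0.937, and of 0.114 with the block. Nr1d2 had ratios of 0.56 and 0.36 after 24 h, with a mean of 0.46 (SE 0.10, adjusted p = 0.435), and Tef 0.25 and 0.45, with a mean of 0.35 (SE 0.09, adjusted p = 0.693). These were the 3 genes picked at an unadjusted p below 0.05 at 24 h, each higher in KO than in WT RNA on both arrays.

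The other unadjusted picks were Nr1d1 and Tef at 1 h, Bhlhe40 at 4 h and Cry2 over all times. Nr1d1 had ratios of -0.75 and -0.29 at 1 h (mean -0.52, SE 0.16, adjusted p = 0.714, limma), Tef 0.22 and 0.21 (mean 0.22, adjusted p = 0.896), and Bhlhe40 0.35 and 0.29 after 4 h in RNA labelled KO against WT (mean 0.32, SE 0.10, adjusted p = 0.861). Cry2 had ratios of 0.46 and -0.11 untreated, 0.69 and -0.05 at 1 h, 0.35 and 0.21 after 4 h, and 0.19 and 0.11 after 24 h. Replicate 1 was above replicate 2 at every time, and the mean over the times of 0.23 did not pass (adjusted p = 0.392), while blocking by the replicate number, which here is also the dye orientation, gave 0.0421.

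**Figure D3:**
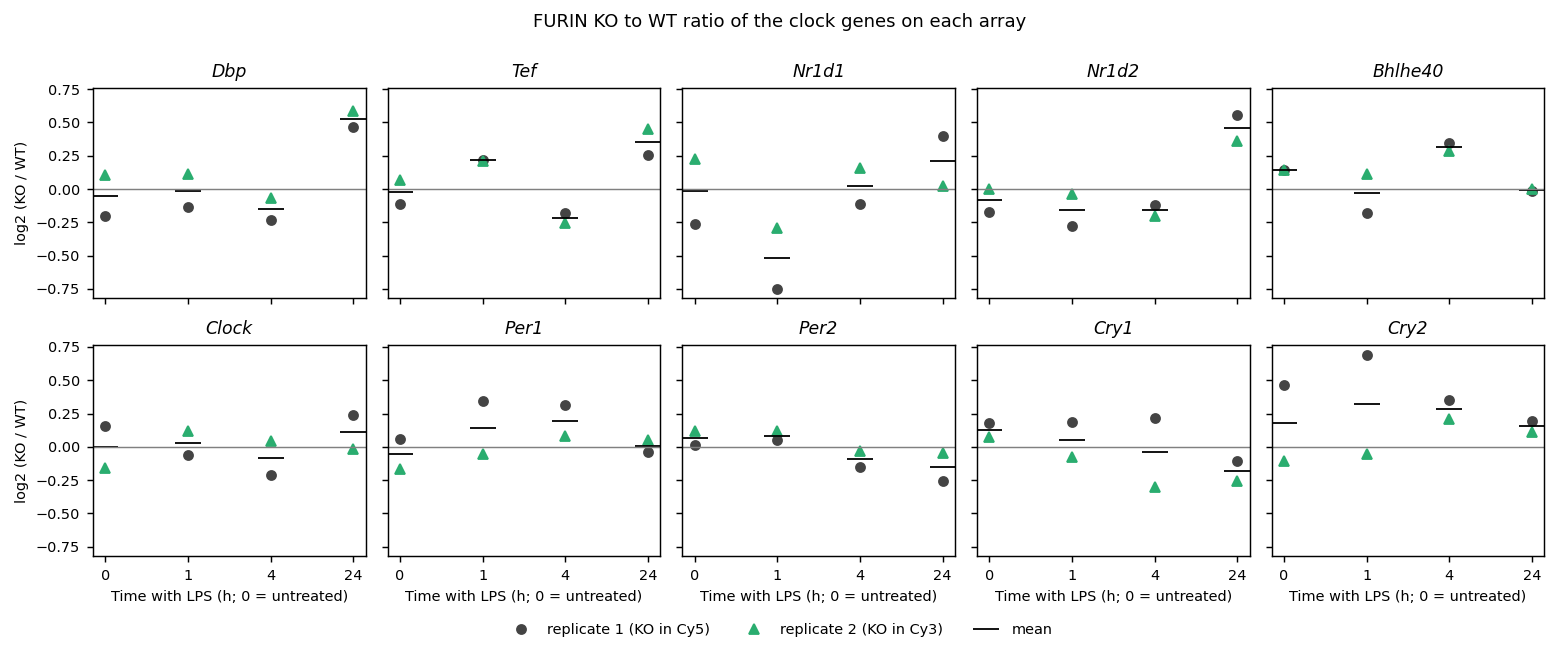
Log2 ratio of FURIN KO to WT (y axis) for each clock gene on each array at 0, 1, 4 and 24 h of LPS (x axis, evenly spaced times). Circles are replicate 1 (KO in Cy5), triangles replicate 2 (KO in Cy3) and bars the mean of both. Dbp at 0.47 and 0.59, Nr1d2 at 0.56 and 0.36 and Tef at 0.25 and 0.45 lie above 0 at 24 h, while the arrays of Cry2 lie apart at 0 and 1 h.

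Of 23 other clock genes tested, 3 were higher and 1 lower at 1 h in WT cells, 7 and 4 at 4 h, and 4 and 10 at 24 h. Of all tested, 3.36% were higher and 5.19% lower at 1 h in WT cells, 15.4% and 19.3% at 4 h, and 13.5% and 16.8% at 24 h, and more of the genes well above background, as given above. In KO cells the counts were 2 and 1, 7 and 5, and 4 and 10, against 3.11% and 4.41%, 16.2% and 19.8%, and 13.0% and 15.7% of all tested. Between KO and WT 0 of the 23 passed the test at 0, 1, 4 or 24 h (limma), and 4, 3, 1 and 1 had an unadjusted p below 0.05, as did 6 for the mean over the times, where 2137, 2054, 1590, 1251 and 3942 of all 36947 tested did. For the difference in LPS response, also with 0 passing, 0, 1 and 2 had one at 1, 4 and 24 h. Npas2, Hlf and Fbxl21 were not well above background in any channel. Among the 5 other repressors, 3 rose and 2 fell at 4 h in both genotypes. Nfil3, which represses through the D-box that DBP and TEF activate, rose 5.29-fold in WT and 5.59-fold in RNA labelled KO at 4 h (log2 changes 2.40 and 2.48, SE 0.17, adjusted p = 7.94e-08 and 5.98e-08, limma) and was back at changes of -0.02 and 0.07 after 24 h. Ciart (CHRONO), a repressor of CLOCK and BMAL1, rose 3.12-fold and 2.69-fold at 4 h (adjusted p = 3.81e-06 and 1.48e-05) and stood at changes of 0.16 and 0.03 after 24 h. Ciart was well above background in 14 of the 16 channels, so its low levels lie near the limit of the probe. Timeless, which in mammals also serves at the replication fork, rose 6.48-fold and 6.86-fold at 24 h (adjusted p = 2.75e-07 and 2.19e-07). Bhlhe41 (DEC2), the paralogue of Bhlhe40, fell 2.40-fold and 2.19-fold at 4 h (adjusted p = 4.34e-06 and 1.31e-05) and rose again by 24 h by 0.83 and 0.70 on the log2 scale (adjusted p = 0.000321 and 0.00119).

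Among the 6 other activators, 2 fell at 24 h in both genotypes, Rora and Arntl. Rora, the activator that competes with REV-ERB at its element, fell 4.16-fold in WT and 3.20-fold in KO cells (adjusted p = 7.15e-08 and 5.43e-07, limma). Arntl, the gene for BMAL1 and named here after its values were seen because it is the partner of CLOCK, changed by -0.45 and -0.78 (SE 0.13, adjusted p = 0.0127 and 0.000267). Among the 8 kinase and ubiquitin ligase genes that set the life of PER and CRY proteins, 5 fell and 1 rose at 24 h in both genotypes, which is to be read against the shares given above. Btrc, which marks PER proteins for breakdown, was not well above background at 4 h and was there at least 2.20-fold lower in WT and at least 2.22-fold lower in RNA labelled KO (adjusted p = 3e-05 and 1.67e-05, limma).

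The 3 output genes each changed in both genotypes. Noct (nocturnin) rose 8.65-fold in WT and 7.93-fold in KO cells at 1 h (adjusted p = 7.03e-07 and 1.23e-06, limma), 11.1-fold and 5.45-fold at 4 h, and 3.75-fold and 1.66-fold at 24 h. Wee1, a kinase that holds back entry into mitosis, rose 2.55-fold and 2.35-fold at 24 h (adjusted p = 6.9e-05 and 0.000164). Usp2, a ubiquitin protease, was 2.63-fold lower in WT and 2.79-fold lower in KO cells at 1 h (adjusted p = 9.57e-06 and 6.55e-06). It was not well above background at 4 and 24 h, and against untreated cells was at least 4.68-fold and 4.74-fold lower in WT and at least 5.40-fold lower in RNA labelled KO and 5.24-fold lower in KO cells. Such bounds compare the untreated mean with the higher of the probe's own signal and the dimmest signal well above background, per channel after loess and Aquantile normalization.

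**Figure D4:**
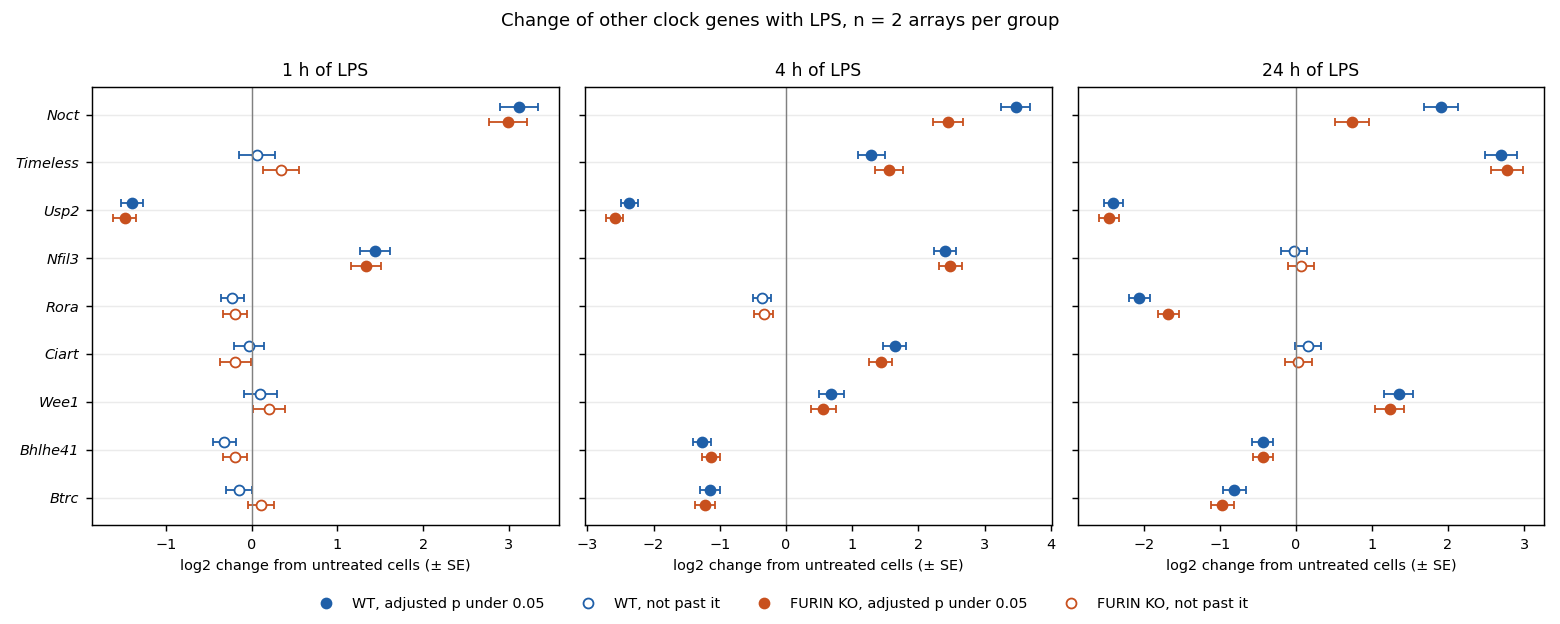
Log2 change from untreated cells (x axes, which differ between panels; points with SE bars, n = 2 arrays per group) of 9 of the 10 other clock genes with the largest mean change at 4 or 24 h. Blue is WT, orange FURIN KO; filled points passed an adjusted p of 0.05. Nfil3 and Ciart lie right of 0 at 4 h and near 0 at 24 h, Noct lies right of 0 throughout, and Usp2, which was not well above background at 4 and 24 h, lies left of 0.

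For each clock gene the named gene with the nearest course was sought among genes well above background in all 16 channels, as a description: the channels group by time, share arrays in pairs and carry no test. Over the 16 channels Pearson's r of log2 intensity was 0.992 for Dbp with Mtmr3, 0.991 for Tef with Rufy2, 0.986 for Nr1d2 with Adgre4, 0.986 for Bhlhe40 with Igf1, and 0.976 for Nr1d1 with Mthfsl. It was 0.974 for Clock with Ube2q2, 0.964 for Cry2 with Ubr4, 0.959 for Per1 with Krt18, 0.942 for Per2 with Bcar3, and 0.933 for Cry1 with Lynx1.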

How the data were processed

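The authors scanned 8 two-colour Agilent 8×60K mouse arrays and extracted spot values with Agilent Feature Extraction 10.7.3. The deposited files hold median foreground and background intensity per dye, and the deposited value table holds normalized log2 ratios of Cy5 to Cy3, which followed the arrays' own ratios (r from 0.988 to 0.994). Intensity was corrected here with normexp (offset 50), normalized by loess within and quantile between arrays in limma 3.58.1 (R 4.3.3, statmod 1.5.0), averaged over spots of a probe, and kept at a mean log2 intensity of at least 6. Mean foreground signals were not used. Probes were named through RefSeq accessions, so that 27509 of 55681 gene probes carry a symbol. LPS effects came from the separate-channel fit (within-spot correlation 0.12, from 5000 genes), genotype effects from log2 ratios with 4 residual degrees of freedom, both adjusted by Benjamini-Hochberg over all genes tested. The scripts were tested on simulated data. Array precision is limited by 2 arrays per time.

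The clock genes and all lists were chosen with earlier results of these data known. Named genes were all 10 clock genes, the 10 other clock genes with the largest mean WT and KO change among the 17 called at 4 or 24 h, of which 1 is not reported here, and the checks of labels. Arntl and the markers Hdc and S100a8 were named after their values were seen. Samples with the same replicate number share a dye orientation. Differences between replicate 1 and 2 correlated between times over genes, with r from 0.48 to 0.68 for ratios and from 0.21 to 0.56 for levels, so the number was treated as pairing samples and fitted as a block in an alternative fit. For LPS effects, wherever the block is named, that fit also held a term for the dye. Other alternatives were processed signals, Aquantile, no filter, only genes well above background, the mean of probes, each array left out, the deposited ratios and the methods' t-test.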

Additional observations from a re-analysis of the deposited data

Results flagged for a closer look

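Ratios of KO to WT that lay on one side of 0 on both arrays at one LPS time and on the other side on both arrays at another were seen in 5 of the clock genes. The rule was applied to the clock genes only. The share of all genes that meet it was not counted, so the count cannot be set against it. The differences between LPS times were not tested. For Nr1d1 the log2 ratio was higher at 24 than at 1 h by 0.73, from -0.52 to 0.21. For Nr1d2 it was higher at 24 h than at 1 h and at 4 h by 0.62 each. For Dbp it was higher at 24 than at 4 h by 0.68, from -0.15 to 0.53. For Tef it changed by -0.43 from 1 to 4 h and by 0.57 from 4 to 24 h. For Per2 the change was -0.18 from 1 to 4 h and -0.23 from 1 to 24 h. The 4 h ratios rest on RNA labelled KO, in which Furin was not lower.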

How the results depend on the processing

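No direction of a called result turned under any alternative that was run. Counts of the 10 clock genes called moved as follows. At 1 h in KO cells, the 2 genes became 1, Tef being lost, with processed signals, Aquantile normalization or the mean of probes. Processed signals also lost Per2 at 4 h and Cry2 from 4 to 24 h in KO cells. With the replicate number as a block, 1 gene differed between KO and WT at 24 h (Dbp) and 1 over all times (Cry2), in place of 0, where 0.585% and 6.06% of all tested passed, and apart from the calls given in the report the block changed no call on the 10 genes. Leaving out each array in turn gave 1 to 2 genes at 1 h in WT and in KO cells, 5 to 7 and 4 to 7 at 4 h, 6 to 8 and 6 to 7 at 24 h, 4 and 5 to 6 from 4 to 24 h, and 0 between KO and WT at every time. The methods' t-test, unadjusted, called 3 genes at 4 h in WT, 4 at 1 h in KO and 1 between KO and WT at 24 h. It also lost Per2 at 4 h and Clock at 24 h in KO cells, and gained Cry1 there at 24 h and from 4 to 24 h, and Cry2 from 4 to 24 h in WT cells. After Benjamini-Hochberg it called 0, 2, 0 and 0 in WT and 0, 1, 2 and 0 in KO cells at 1, 4 and 24 h and from 4 to 24 h. Limiting the test to genes well above background on all arrays left out Nr1d1 and Per2, and called Bhlhe40 in WT cells at 4 h (adjusted p = 0.0436) and Tef from 4 to 24 h in KO cells (adjusted p = 0.0337).

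Over all genes tested, the counts called at 1 h were 3157 in WT and 2776 in KO cells, with 4366 in KO cells under the block. Without single arrays they were 1798 to 3296 in WT, over 1.5 times lower without untreated replicate 1 or 1 h replicate 2, and 1468 to 2843 in KO cells, over 1.5 times lower without untreated replicate 1 or either 1 h array. Between KO and WT 0, 0, 4 and 8 were called at 0, 1, 4 and 24 h, 399, 218, 209 and 216 under the block, and 0 to 3, 0 to 10, 0 to 7 and 0 to 12 without single arrays, the 3 without either 24 h array and the 10 without 1 h replicate 1. At 24 h 14 were called with Aquantile or the deposited ratios, 4 with the mean of probes, 5 with only genes well above background and 0 with processed signals. At 4 h the last 2 settings called 0 each. Over all times 220 were called, 2239 under the block, 111 with the mean of probes, 0 with processed signals and 1 to 154 without single arrays, over 1.5 times lower for every array left out except 24 h replicate 1. The difference in response was called for 16 genes at 4 h and 78 at 24 h under the block, and for up to 8 at 1 h without 1 h replicate 1, in place of 0. The methods' t-test after adjustment called 0, 1886, 6 and 5 genes in WT and 0, 729, 540 and 1 in KO cells at 1, 4 and 24 h and from 4 to 24 h, and 2 between KO and WT at 1 h, and unadjusted 4872 in WT and 5093 in KO cells at 1 h and 1714, 1771, 1121 and 1491 between KO and WT. The cause was not tested. With 2 arrays per time, levels near background (Per2, and Nr1d1 at 24 h) are the least certain.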
